A study of Mus musculus with 10 samples.

Results

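Cd209a dendritic cells were described here in SW1 tumors of C3H/HeJ mice. A droplet barcode was counted as a member when 500 genes or more were detected in it, when mitochondrial genes gave 10% of its UMIs or less, when it held at least 1 UMI of Cd209a, and when it had no UMI of Xcr1 or Clec9a, no UMI of the Cd3 genes Cd3e, Cd3d and Cd3g, no UMI of Siglech and at most 5 UMIs of C1qa, C1qb and C1qc together. A UMI (unique molecular identifier) marks 1 captured RNA molecule. This rule found 69 members among 41936 barcodes, of which 31156 passed the limits on genes and mitochondrial UMIs. The members were chosen by Cd209a and by the absence of the other genes, so these genes are given as a description and support nothing.

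Cd209a encodes a C-type lectin, a mouse relative of the human receptor DC-SIGN, which binds fucose and mannose on glycans. In mice it is known from monocyte-derived dendritic cells (moDC) and from a subset of conventional type 2 dendritic cells (cDC2), both of which take up antigen and present it on MHC class II to CD4+ T cells. cDC2 come from a precursor that depends on the receptor Flt3, whereas moDC come from monocytes, which carry Ly6c2, Plac8 and Ccr2. On the GRCm38 genome Cd209a lies on chromosome 8 from 3743397 to 3748984, next to its relatives Cd209e (3847965 to 3854309) and Cd209d (3871824 to 3878555), and reads from such similar genes may be shared between them. The lectin genes Mgl2 (chromosome 11, 70130329 to 70137550) and Clec10a (70156197 to 70170834) form another pair of near neighbours.

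SW1 is a mouse melanoma line, which was grown under the skin of female C3H/HeJ mice aged 4 to 6 weeks. L-fucose (L-fuc), a dietary sugar, was given at 100 mM in the drinking water from 10 days after tumor injection by the labels, and control mice drank plain water. Each gene expression library was taken to be a pool of mice, since several mice per arm are given and 1 library per condition. There was 1 library each for control day 0 (3 mice, before treatment), for control and L-fuc water at day 7, and for control and L-fuc water at day 21. Values by library are given in this order below. The labels give 5 mice per arm in 1 protocol and 6 in another, and 100 nM for the sugar in 1 place. C3H/HeJ mice carry a defective Tlr4 and another MHC haplotype than the reference genome, which limits what the counts of MHC genes show. The labels describe a sort for CD45+ leukocytes. The libraries held 1725, 20741, 15288, 2754 and 1428 barcodes with 14439185, 119047810, 88986101, 21727157 and 16589803 UMIs. With 1 library per condition there was no test between conditions, and all intervals are 95% intervals that cover counting error only.

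The members numbered 7 at control day 0, 41 at control day 7, 15 at L-fuc day 7, 2 at control day 21 and 4 at L-fuc day 21. Of 205 barcodes with Cd209a that passed the limits, 36 carried Xcr1 or Clec9a, 62 more than 5 C1q UMIs, 56 a Cd3 gene and 55 Siglech, with overlaps between these sets. At the edges of the rule, 35 of the 69 members held a single UMI of Cd209a and 18605 barcodes met every other criterion with none. For C1q, 5 members held 4 or 5 UMIs, while 9 barcodes outside the rule held 6 to 10, of which 8 were at L-fuc day 21. Members held between 1270 and 29052 UMIs with a median of 5491, and none held a T cell receptor contig. Of barcodes with Cd3, 76.2%, 22.4%, 40.4%, 48.3% and 24.2% held one in the order of libraries, so that a missing contig says less at day 7 and L-fuc day 21. Counted library by library, 1417 barcodes had a sequence that also occurred in another library. They included 2 members of control day 7, and no barcode was a member in 2 libraries.

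The label of dendritic cells held for a share of the members only. At least 1 UMI of Clec10a, Itgax or Flt3, the genes given to mark these cells, was present in 4 of 7, 6 of 41, 10 of 15, 1 of 2 and 2 of 4 members in the order of libraries. Many members of control day 7 instead carried Sparc, the gene of a matrix protein that melanoma cells and fibroblasts are known to make. The members were therefore divided, after their values had been seen, by whether the UMIs of the leukocyte genes Ptprc (CD45) and Tyrobp (an adaptor of myeloid receptors) together exceeded those of Sparc. By this division 36 members were led by leukocyte genes, 32 by Sparc and 1 was tied. The leukocyte-led members numbered 7, 11, 13, 2 and 3 in the order of libraries, and 30 of the 32 Sparc-led members were from control day 7, a library in which 13696 of the 17897 barcodes that passed were Sparc-led despite the sort. The division is a description. Fits restricted to leukocyte-led members are processing alternatives chosen after seeing the data and support no result below.

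**Figure D1:**
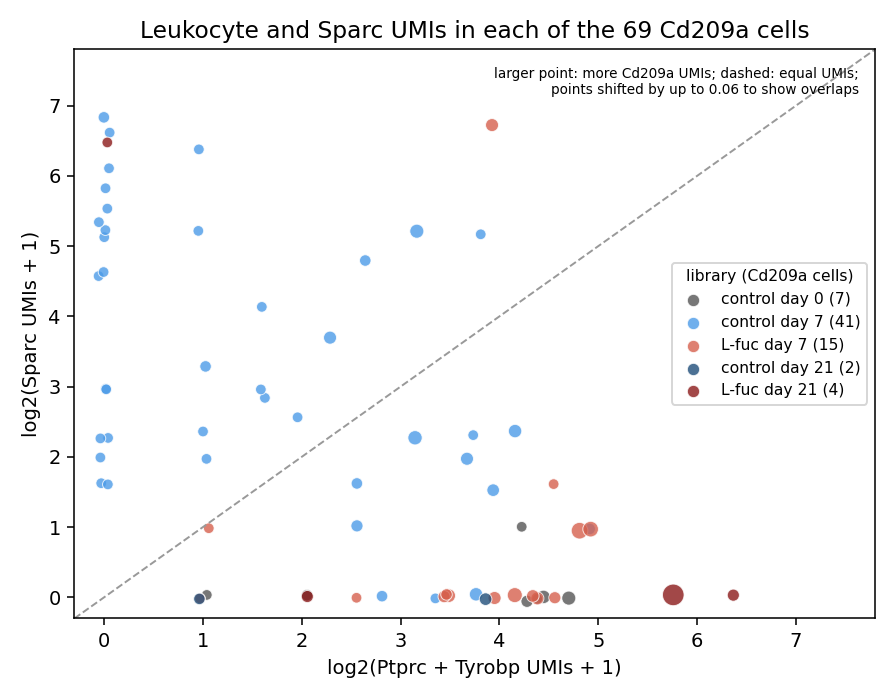
Each point is 1 of the 69 Cd209a cells, colored by library and larger with more Cd209a UMIs, with log2(UMIs + 1) of Ptprc plus Tyrobp on the horizontal and of Sparc on the vertical axis, and the dashed line marks equal UMIs. 30 of the 41 points of control day 7 lie above it on the side of Sparc, whereas 13 of the 15 of L-fuc day 7 and all 7 of control day 0 lie on the side of the leukocyte genes.

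Sparc-led and leukocyte-led members differed in much besides the dividing genes. Sparc-led members held a median of 22.5 UMIs of Sparc (2 to 111) and 1 of Cd209a (1 to 8), and 26 of the 32 had a single Cd209a UMI. Clec10a was found in 2 of them, Itgax and Flt3 in 1 each, and Mgl2 in none. The median share of their UMIs from the MHC class II genes H2-Aa, H2-Ab1, H2-Eb1 and Cd74 (below, the class II share) was 0.223%. Leukocyte-led members held a median of 3 UMIs of Cd209a (1 to 77), and 8 of the 36 had a single one. Their class II share had a median of 0.894% and ranged from 0 to 12.2%. Clec10a was present in 10, Flt3 in 11, Itgax in 8, Mgl2 in 6, Ly6c2 in 17 and Plac8 in 28 of the 36. Both single Sparc-led members outside control day 7 were among the largest barcodes. The one of L-fuc day 7 held 28315 UMIs with 108 of Sparc, 13 of Tyrobp and 5 of Cd209a, and the one of L-fuc day 21 held 29052 UMIs with 85 of Sparc and none of Ptprc or Tyrobp. No doublet caller was applied, and whether these barcodes held more than 1 cell was not tested.

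As a share of barcodes that passed the limits, Cd209a cells were 0.476% at control day 0 (0.192% to 0.979%), 0.229% at control day 7 (0.164% to 0.311%), 0.166% at L-fuc day 7 (0.0930% to 0.274%), 0.127% at control day 21 (0.0154% to 0.459%) and 0.338% at L-fuc day 21 (0.0923% to 0.864%). The L-fuc share was 0.725 of the control share at day 7 (0.373 to 1.34) and 2.66 of it at day 21 (0.381 to 29.4), and both intervals include 1. Without the C1q limit the day 21 ratio was 4.88 (1.92 to 14.7, from 22 and 6 barcodes), an interval that excludes 1. Most of these barcodes held more C1q than the rule allows. Of the 22 in L-fuc, 8 held 6 to 10 C1q UMIs and 10 held more, and of the 6 in control, 4 held more than 10. This ratio is thus mainly of barcodes that are not members. At day 7 the ratio depended on which members were counted. Leukocyte-led members alone were 0.0615% of control and 0.144% of L-fuc barcodes, a ratio of 2.34 (0.968 to 5.77), but leukocyte-led barcodes as a whole were 3194 of 17897 in control and 4344 of 9034 in L-fuc. Within the leukocyte-led barcodes the members made up 0.344% in control and 0.299% in L-fuc, a ratio of 0.869 (0.359 to 2.14). At day 21 the corresponding shares were 0.203% and 0.489%, from 2 and 3 members.

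Free RNA in droplets can give a Cd209a UMI to a cell that does not express the gene. Among barcodes with Cd3, Cd209a was present in 0.601%, 0.626%, 1.03%, 0% and 2.20% in the order of libraries, at median depths of 4810, 4794.5, 4696, 5175.5 and 6393 UMIs against 5863, 5521, 5780, 8201 and 2890.5 for all barcodes that passed. The 0 of 116 Cd3 barcodes at control day 21 allow a share of up to 2.59% by a floor of 3 counts, and the exact interval reaches 3.13%. The share of Cd209a cells was below that of the Cd3 barcodes in the other 4 libraries. These shares have unlike denominators, since that of Cd209a cells is of all barcodes that passed, also those that the rule leaves out. At control day 0, 7 members stood beside 556 barcodes that met every other criterion, and 3 of 499 Cd3 barcodes held Cd209a. The order there thus turns with the denominator. Among Cd3 barcodes with neither Sparc nor Siglech the share with Cd209a was 0.417% at control day 0 (2 of 480 barcodes), below the 0.476% of Cd209a cells there. It was 0.630%, 0.687% and 3.39% in both day 7 libraries and L-fuc day 21. No order of libraries or effect of L-fuc was read from shares of this size, and the part of free RNA in them was not tested. Among barcodes with Sparc and without Ptprc and Tyrobp the share was 0.225% at control day 7 (20 of 8902), but most of these Cd209a barcodes are themselves Sparc-led members, so that this share is no separate background. The groups differed more in the number of Cd209a UMIs per barcode. At least 2 UMIs were found in 28 of the 36 leukocyte-led members and in 6 of the 32 Sparc-led members. They were found in 21 of the 56 Cd209a barcodes with Cd3, of which 1 held 19. These were 3 of 3 at control day 0, 4 of 24 at control day 7, 14 of 27 at L-fuc day 7 and 0 of 2 at L-fuc day 21. The largest share was among barcodes with Siglech, a marker of plasmacytoid dendritic cells (pDC), which the rule leaves out. There Cd209a was present in 2 of 7, 26 of 258, 25 of 106, 2 of 5 and 0 of 3 barcodes. At least 2 UMIs were held by 32 of these 55 Cd209a barcodes.

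**Figure D2:**
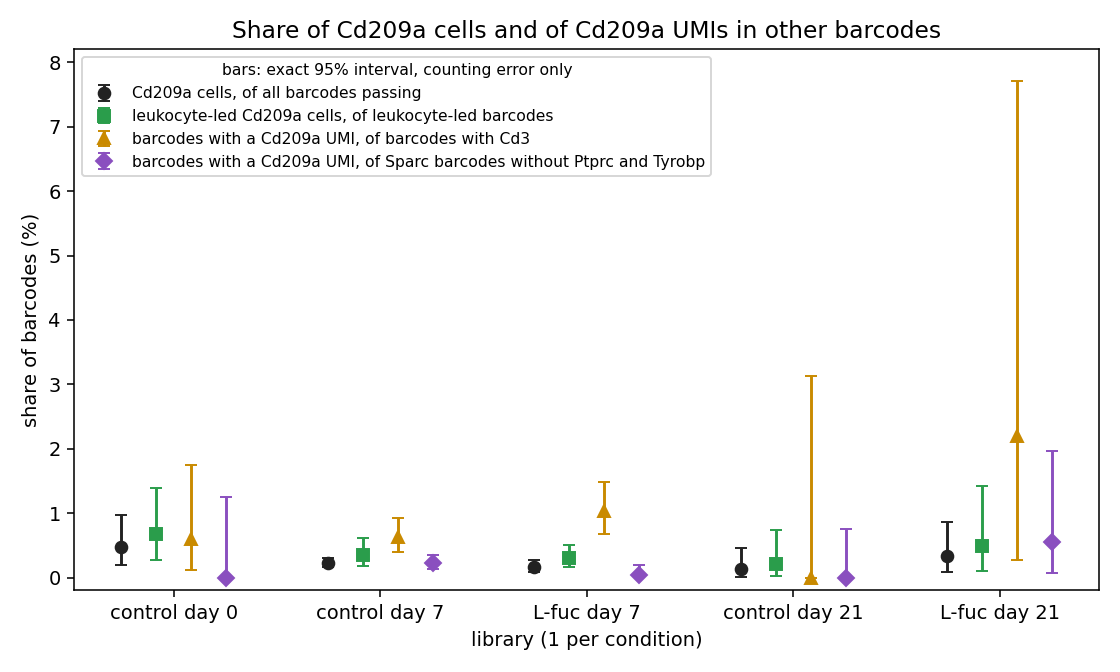
For each library the plot gives, in percent, Cd209a cells of all barcodes that passed (circles), leukocyte-led Cd209a cells of leukocyte-led barcodes (squares), and barcodes with a Cd209a UMI of those with Cd3 (triangles) or with Sparc and neither Ptprc nor Tyrobp (diamonds), with exact 95% intervals for counting error. The Cd209a cells at day 7 (0.229% and 0.166%) lie below the Cd3 barcodes of the same libraries (0.626% and 1.03%).

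The leukocyte-led members of control day 0 differed widely from each other. Of its 7 members, 3 had class II shares of 6.22%, 6.38% and 6.68%, with 3, 3 and 5 UMIs of Clec10a and 8, 6 and 3 of Cd209a. A further member held 50 UMIs of Mgl2, 40 of the chemokine gene Ccl17 and 56 of the cytokine gene Il1b, with a class II share of 3.89% and a single Cd209a UMI. Ifitm1, an interferon-induced membrane protein gene, had 106 UMIs in the member with 6.38% and 72 in that with 6.68%. The other 3 members had class II shares of 0.713%, 0.0395% and 0, and the last of these carried 24 UMIs of Plac8 and 6 of Ly6c2.

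At control day 7 the 11 leukocyte-led members had class II shares of 0.0746% to 4.63% with a median of 0.616%. The member with most Cd209a (9 UMIs) had 2 UMIs of Flt3 and a class II share of 4.54%. Only 1 of the 11 held Clec10a and 2 held Flt3, whereas 5 held Ly6c2, 10 Plac8 and 7 Cd7, a gene that the study's moDC markers include. A member with 6 UMIs of Cd209a held 267 UMIs of the immunoglobulin segment Ighv6-6, 64 of Hsp90b1, a chaperone of the endoplasmic reticulum, and 15 of Jchain, which plasma cells use to join antibodies. Another held 100 UMIs of Lyz2, the lysozyme gene of myeloid cells, with 2 of Cd209a.

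At L-fuc day 7 the 13 leukocyte-led members had class II shares of 0.0504% to 3.95% with a median of 0.914%, a range that overlapped that of control. Plac8 was present in 12, Ly6c2 in 8, Flt3 in 6 and Clec10a in 5 of them. The members with most Cd209a held 21, 15 and 12 UMIs of it, with 91, 17 and 124 UMIs of Lyz2. The member with 15 also held 4 UMIs of Flt3, 10 of Irf8, 6 of Cd209d, 8 of Cd7 and 6 of Ly6c2, and so carried genes of both routes. A member with 4 UMIs of Cd209a held 23 of Irf8, a transcription factor of dendritic cells and monocytes, 108 of Ifitm1, 226 of the chemokine gene Ccl4 and 3 of Ccr7, the receptor that guides mature dendritic cells to lymph nodes. Its class II share of 3.95% was the highest in that library.

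Day 21 gave 5 leukocyte-led members. The member with most Cd209a in the series was at L-fuc day 21, with 77 UMIs of Cd209a, 42 of Clec10a, 38 of Ptprc and a class II share of 12.2%, among 8706 UMIs. A second barcode of that library held 511 UMIs of Lyz2, 77 of Plac8 and 42 of Ly6c2 with 3 of Cd209a. The 2 members of control day 21 had class II shares of 2.20% and 8.11% and no UMI of Plac8 or Ly6c2. Over the 36 leukocyte-led members, 4 carried Flt3 without Ly6c2, 10 Ly6c2 without Flt3, 7 both and 15 neither, and Plac8, also of the monocyte route, was in 28 of the 36, members without Ly6c2 among them. Zbtb46, a factor of conventional dendritic cells, was found in 3 and Irf4, a factor of cDC2, in 7. At these counts a missing UMI does not show that a gene was silent.

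**Figure D3:**
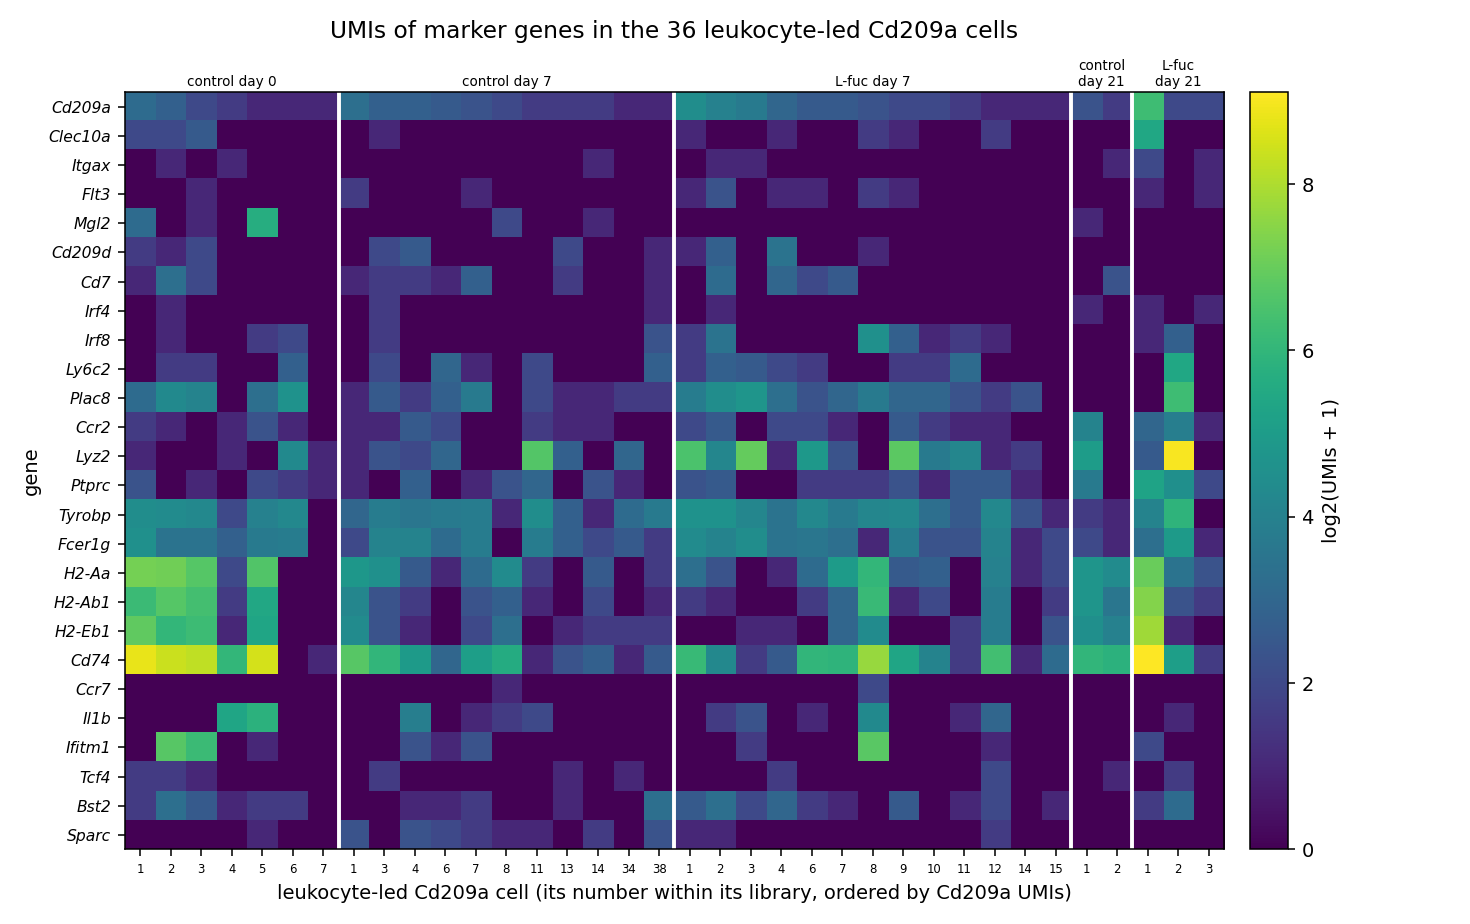
Rows are marker genes and columns the 36 leukocyte-led Cd209a cells, numbered within their library by falling Cd209a UMIs, and color gives log2(UMIs + 1). Clec10a and the class II genes are highest in a few columns, above all the L-fuc day 21 barcode with 77 UMIs of Cd209a, whereas Plac8 is present in 28 of the 36 columns.

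Summed over leukocyte-led members and scaled to UMIs per 1000000 of their total (CPM), Cd209a itself was 364, 963, 1183, 801 and 3042 CPM in the order of libraries, which the rule selected. Clec10a was 182, 23.5, 104, 0 and 1539 CPM. The last value came from 1 barcode. Mgl2 was 977, 93.9, 0, 134 and 0 CPM, and so was high at control day 0 only, where 50 of its 59 UMIs were in 1 barcode. Cd209d was found at control day 0 and in both day 7 libraries (99.3, 282 and 266 CPM) and had no UMI at day 21. Flt3 was 16.6, 70.4, 148, 0 and 73.3 CPM. Of the genes for the monocyte route, Plac8 was 1258, 822, 1715, 0 and 2822 CPM, Ly6c2 166, 470, 444, 0 and 1539 CPM, and Ccr2 149, 329, 355, 2136 and 806 CPM. At L-fuc day 21 all 77 UMIs of Plac8 and 42 of Ly6c2 were in 1 barcode. The 16 UMIs of Ccr2 at control day 21 were in 1 barcode too. Cd74, the invariant chain of MHC class II, was 24947, 7138, 8487, 16024 and 21401 CPM, lower in both day 7 libraries than in the others. At L-fuc day 21 this rested on 1 barcode with 549 UMIs of Cd74, while the other members held 33 and 2. The members of control day 21 held 63 and 57.

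Lists of markers were summed in the same way. The cDC2 list summed to 2467, 1080, 1227, 4807 and 4984 CPM, with 12 of its 14 genes found and Clec4a4 and Cd1d1 at 0. The list that the study used for moDC, made of Cd7, Atp1b1, Clec10a and Cd209d, summed to 497, 657, 724, 534 and 1539 CPM. The monocyte list of 14 genes summed to 4751, 2653, 4406, 3605 and 8721 CPM, led over all libraries by Plac8, with Chil3 and Thbs1 at 0. The 77 UMIs of Plac8 at L-fuc day 21 were in 1 barcode. The macrophage list of 14 genes summed to 3427, 1315, 858, 3338 and 953 CPM, led at control day 21 by Mrc1 with 2136 CPM. Mertk and Pf4 of that list were at 0 in all 36. Genes of mature dendritic cells summed to 977, 376, 1079, 134 and 366 CPM, led by Cd83 in every library but control day 21, while Fscn1, Ccl22, Cacnb3, Fabp3 and Il12b were at 0.

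Markers of other cells were summed as well, and their part in the results was not tested. The pDC list of 6 genes summed to 480, 540, 651, 134 and 440 CPM, led over all libraries by Bst2 at 399 CPM, which was at 426 CPM in C1q macrophages, and Ccr9 and Ly6d were at 0. Lists for T cells (12 UMIs in all, with Trbc1, Trbc2 and Cd247 at 0), neutrophils (7 UMIs, with S100a8 and Ly6g at 0), fibroblasts (7 UMIs), endothelial cells (5 UMIs) and mast cells (2 UMIs) were close to 0. NK cell genes gave 843 CPM at L-fuc day 7, led by Gzma, and at most 70.4 CPM elsewhere, with Klrb1c and Eomes at 0. B cell genes gave 1526 CPM at control day 7, led by Igkc, and at most 668 CPM elsewhere. The melanoma and Schwann cell list summed to 33.1, 704, 207, 0 and 36.6 CPM, with the pigment genes Mlana, Pmel, Tyr, Tyrp1 and Dct at 0. Red cell genes summed to 1033 CPM at control day 7 and 6284 CPM at L-fuc day 7, and to 872 and 5360 CPM in C1q macrophages of the same libraries. Hbb-bs was found in all 13 leukocyte-led members of L-fuc day 7, with 321 of its 351 UMIs in 1 barcode, and in 5 of 11 of control.

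Gates from the same libraries served as neighbours for comparison. C1q macrophages (at least 6 UMIs of the C1q genes) numbered 4612, Ly6c2 Plac8 monocytes 134 and Xcr1 Clec9a cDC1 92. The test paired the gates within a library with edgeR's quasi-likelihood test and Benjamini-Hochberg adjustment. It used control day 7 and L-fuc day 7, the libraries in which both gates held at least 10 barcodes, which leaves 1 residual degree of freedom. All Cd209a cells entered, so 30 of the 56 members in the test were Sparc-led at control day 7. The genes read by the gates were left out. Besides the test, levels in leukocyte-led members are given without a test for the same libraries, control day 7 first. The other gates were not divided by Sparc.

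Against C1q macrophages, Cd209a cells had more of the relatives Cd209d and Cd209e, of Flt3 and Clec10a, and of the monocyte genes Plac8, Ifitm6 and Hp, and less of the tissue macrophage genes. Of 11582 genes, 427 differed (3.69%), with 59 higher (0.509%) and 368 lower (3.18%). Cd209d rose from 0.198 CPM in macrophages to 102 CPM (log2 fold change 8.76, adjusted p 3.03e-31 by edgeR), and Flt3 from 0.494 to 41.2 CPM (6.33, adjusted p 9.63e-06 by edgeR). Ifitm6 rose by 4.86 and Kcne3, a potassium channel subunit, by 6.26 on the log2 scale. Cd209e, Upb1, Smim5, Cbfa2t3, Ifitm1 and AI839979 completed the 10 largest increases, of which Cd209e had 14 UMIs in members and 1 in macrophages. The 10 largest decreases had no UMI in members. Fcrls, a macrophage receptor, was at 103 CPM in macrophages and thus at least 12.5-fold lower in members, taking 3 UMIs as the floor for the members. Plau was at least 12.1-fold, Vcam1 at least 7.50-fold, C5ar1 at least 6.67-fold and Ch25h at least 5.89-fold lower. Igkv10-96, Tmem37, Bcl2a1a, Pla2g15 and Ptgs1 were the others.

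Of the cDC2 list, Clec10a was the only one of 12 genes tested that was higher and 6 were lower, with a median log2 fold change of -1.33. Over all 5 libraries 3 were higher and 5 lower with all members (median -0.48). With leukocyte-led members 3 were higher and 3 lower (median 0.075 against -0.53 over all genes), so the list's direction depended on the setting. Of all genes in these fits, 114 of 9325 were higher and 431 lower with all members. With leukocyte-led members 136 of 8716 were higher and 426 lower. In the test on 2 libraries, 2 of 14 cDC lineage genes were higher and 2 lower. By list, 6 of 13 monocyte genes tested were higher and 2 lower, beside 0.509% and 3.18% of all genes, with a median log2 fold change of 1.60 against -0.12 over all genes. None of the 14 macrophage genes was higher and 11 were lower, with a median of -3.56, or -3.46 with Fcrls, which had no UMI in members, at its bound. C1q gates the groups, so macrophage genes that go with C1q were set apart by the choice of cells. Of 24 lectin genes 18 were tested, and Cd209e, Cd209d and Clec10a were higher while 8 were lower, among them Clec4n, Cd302, Clec4a1 and Mrc1. Over all 5 libraries 2 of 15 lectin genes were higher and 4 lower with all members, and 2 and 2 with leukocyte-led members. The direction of Mrc1 turned in these fits, to 0.35 and 0.98 on the log2 scale, without a call. Class II genes had 10 of 18 lower and none higher, with a median of -1.79 (-1.77 with genes at 0 in members at their bound). Over all 5 libraries 1 of 17 was higher and 7 were lower with all members (median -1.42). With leukocyte-led members 2 were higher and 5 lower (median -0.99 against -0.53 over all genes). In leukocyte-led members the class II chains lay below the macrophages as well, with H2-Ab1 at 892 and 1508 CPM against 2177 and 3849 CPM and H2-Aa at 2184 and 2188 CPM against 3482 and 5816 CPM. The protease genes Lgmn (70.4 and 266 CPM against 1066 and 983 CPM) and Ctsb (376 and 650.5 CPM against 2394 and 2228 CPM), which serve antigen processing, were lower too. Apoe was at 282 and 14.8 CPM against 6064 and 3890 CPM. Itgax, given as a marker of these dendritic cells, was at 23.5 and 29.6 CPM in leukocyte-led members, from 1 and 2 UMIs, and at 192 and 213 CPM in the macrophages. Plac8 was at 822 and 1715 CPM against 14.0 and 48.6 CPM, and Clec10a had 1 and 7 UMIs in 11 and 13 leukocyte-led members, against 12 and 27 UMIs in 1488 and 1635 macrophages.

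Against Ly6c2 Plac8 monocytes 14 of 4228 genes passed the test (0.331%), with 2 higher (0.0473%) and 12 lower (0.284%), and 460 had an unadjusted p under 0.05. The count moved with the setting, from 0 without the block to 173 without barcodes that held C1q and 257 with no filter on low counts. Cd209d was higher, at 102 CPM against no UMI in the monocytes, which makes it at least 22.8-fold, and Ifitm1 rose by 4.39 on the log2 scale (adjusted p 0.0197 by edgeR), with 108 of its 134 UMIs in 1 barcode of L-fuc day 7. The lower genes included Ccl7, Ptgs2, Clec4e, Glrx, Ccrl2, Cxcl9 and Cd14. Ptgs2, the inducible cyclooxygenase, fell from 392 to 13.7 CPM (-4.51, adjusted p 0.0265 by edgeR) and Cd14, the co-receptor for lipopolysaccharide, from 682 to 104 CPM (-2.60, adjusted p 0.0408). Bgn and Ly6e were also among the 10 largest decreases. Over all 5 libraries Ptgs2 (-3.39), Ccl7, Clec4e, Glrx and Ly6e lost their call, while Ccrl2 and Cd14 kept it. With leukocyte-led members 0 genes were called in that fit, with Ptgs2 at -2.63, Cd14 at -2.22 and Ly6e at -0.50. In leukocyte-led members Plac8 was at 822 and 1715 CPM against 1186 and 2002 CPM in monocytes, and Lyz2 at 3005 and 6032 CPM against 4965 and 12287 CPM. Ly6c2 was at 470 and 444 CPM against 674 and 1631 CPM. Plac8, Ly6c2 and Lyz2 gate the monocytes, so their levels there follow from the choice of cells. Cd7 had 15 and 23 UMIs in leukocyte-led members (352 and 340 CPM) and 2 and 0 in monocytes, and Flt3 had 3 and 10 UMIs and none in monocytes. H2-Ab1 lay on either side, at 892 and 1508 CPM against 576 and 1801 CPM, and none of 15 class II genes passed the test. Clec10a had 1 and 7 UMIs in leukocyte-led members and 1 and 15 in monocytes. Over all 5 libraries 42 of its 61 UMIs were in 1 barcode of L-fuc day 21, and 50 of the 64 of Mgl2 were in 1 of control day 0.

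Against Xcr1 Clec9a cDC1, 83 of 3233 genes differed (2.57%), with 71 higher (2.2%) and 12 lower (0.371%). Genes of the monocyte line were among the higher ones. Lyz2 rose from 62.5 to 1548 CPM (4.73, adjusted p 2.59e-35 by edgeR), S100a4, a calcium-binding protein gene, from 32.5 to 638 CPM (4.48), Ly6c2 from 22.5 to 165 CPM (3.05) and Cd7, with 42 UMIs against 8, rose by 3.01. Cd209d had no UMI in cDC1 and was at least 13.6-fold higher. Ifitm1, Tex101, Atf3, Ppp1r10 and Gch1 were the other large increases. Of 6 monocyte genes tested 4 were higher, and of 12 stress genes, which dissociation of tissue can induce, 6 were higher and none lower, led by Atf3. Over all 5 libraries with all members, 0 of 3 monocyte and 0 of 11 stress genes were called (Atf3 1.98). With leukocyte-led members 3 of 3 monocyte and 4 of 11 stress genes were higher (Atf3 2.81), beside 83 of all 847 genes. Id2, a factor of cDC1, fell from 305 to 88.0 CPM (-1.60, adjusted p 0.00276 by edgeR), and Naaa, Fgl2, Hist1h2ap, Fxyd3, Bgn, Rhox5 and Mgp were lower as well. Over all 5 libraries with all members 0 genes were called lower, and Id2 (-1.67), Naaa, Fgl2, Rhox5 and Mgp lost their call. Id2 (-1.58), Naaa (-0.95) and Fgl2 (-0.15) were not called with leukocyte-led members either. Of 15 class II genes tested 2 were higher and 2 lower. H2-Eb1 (-1.23) and H2-Ab1 (-1.01, adjusted p 0.00604 by edgeR) were lower in the test. Over all 5 libraries neither was called, at -0.47 and -0.31 with all members, and at -0.18 and 0.082 with leukocyte-led members, so that the direction of H2-Ab1 turned. Of 12 class II genes in these fits 0 were called with all members, beside 4 of all 1078 genes. With leukocyte-led members 4 were higher and 0 lower, beside 83 and 27 of all 847 genes. In leukocyte-led members H2-Ab1 was at 892 and 1508 CPM against 1198 and 2945 CPM in cDC1, and H2-Eb1 at 1033 and 710 CPM against 1259 and 3099 CPM. Irf8 was at 141 and 665 CPM in leukocyte-led members and at 161 and 551 CPM in cDC1. Flt3 was at 70.4 and 148 CPM, from 3 and 10 UMIs, and at 23.7 and 37.1 CPM in cDC1, from 5 and 7. The cDC1 were not divided by Sparc, which over all 5 libraries was at 2309 CPM in them and 127 CPM in leukocyte-led members. Its part in these differences of level was not tested. Without the library as a block, edgeR called 111 genes against macrophages and 0 against monocytes and cDC1, where 168 and 71 genes had an unadjusted p under 0.05. DESeq2 with the block called 121, 23 and 12.

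**Figure D4:**
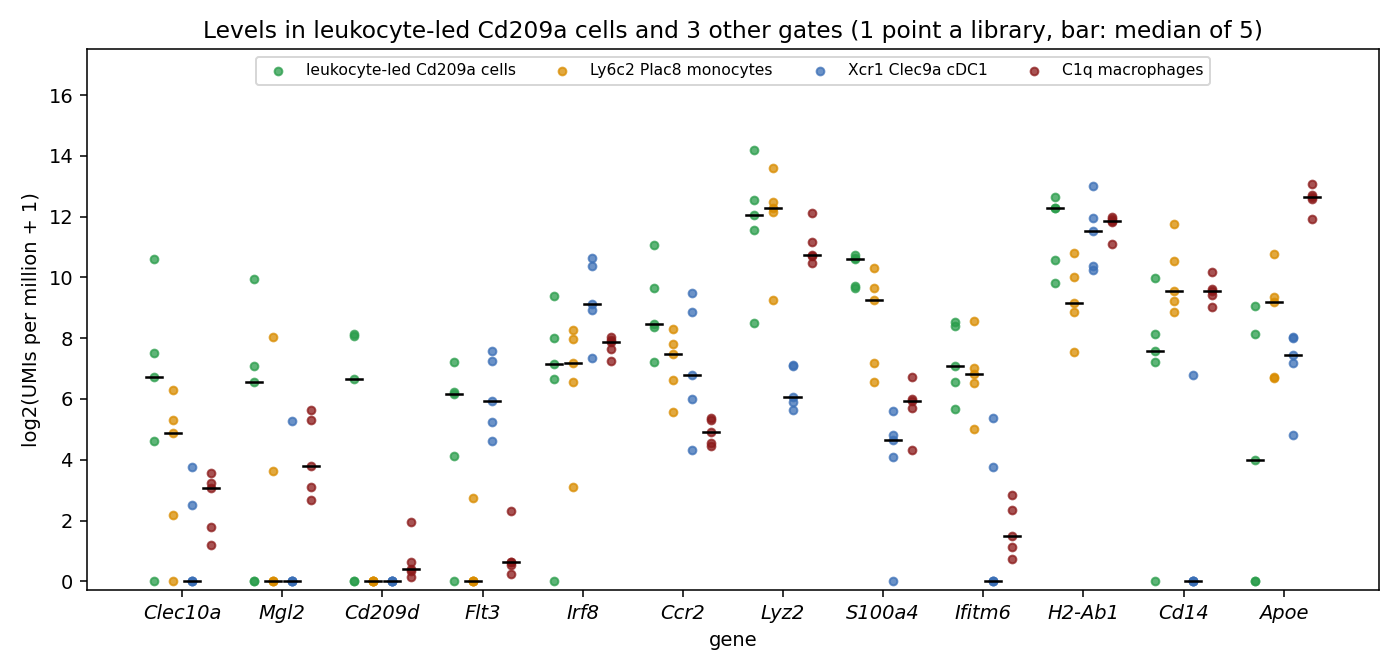
Each point is 1 library, as log2(CPM + 1) of a named gene in leukocyte-led Cd209a cells, Ly6c2 Plac8 monocytes, Xcr1 Clec9a cDC1 or C1q macrophages, and the bar is the median of the 5 libraries. Cd209d has UMIs in 3 of the 5 libraries in Cd209a cells and in none in monocytes and cDC1. In both day 7 libraries Flt3 lies above the cDC1 points and Lyz2, which gates the monocytes, below the monocyte points. The other gates were not divided by Sparc. Flt3 has no UMI at control day 21, and the Cd209a cells span wide ranges where counts are low.

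L-fuc and control water were compared at day 7 for each gene whose UMIs in both libraries came to 50 or more, as log2 ratios of CPM with a pseudocount of 1 UMI. Over all members, Ctss, H2-Ab1 and Cxcl2 were higher with L-fuc, and Sparc, Fbln2 and Rhox5 were lower. Of 970 genes, 243 were past 2-fold (25.1%), with 100 higher (10.3%) and 143 lower (14.7%). The balance depended on the scaling, with 122 higher and 93 lower when the median log2 ratio was set to 0 and 106 and 77 with a pseudocount of 5 UMIs. Sparc itself was 3228 CPM in control and 1150 CPM in L-fuc, in the same direction as the count of Sparc-led members (30 and 1). Of the 18 class II genes listed 11 met the minimum, and 8 were past 2-fold higher, with a median log2 ratio of 1.18, and with Ctss at 218 and 814 CPM and H2-Ab1 at 546 and 1506 CPM. The 6 of 24 cytokine and chemokine genes that met the minimum were higher and both macrophage genes, Apoe and Cd63, were lower. Cxcl2 (15 UMIs in control and 194 in L-fuc), Ccl3 (13 and 97) and Cxcl10 (21 and 64) met it mainly through the L-fuc library, so nothing is read from these counts of genes that met the minimum. Fbln2, Rhox5, Hist1h2ae, Tnfrsf12a, Bzw2, Ube2c and Lgals7 were among the lowest. Fbln2 had 77 UMIs in control and none of them in leukocyte-led members.

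Among leukocyte-led members fewer genes met both limits, and 25 of 288 were past 2-fold (8.68%), 18 higher (6.25%) and 7 lower (2.43%). No class II gene of 9 was past 2-fold, and their median log2 ratio was 0.25 against 0.06 over all genes. H2-Aa was 2184 CPM in control and 2188 CPM in L-fuc, a ratio of 1.00 (0.768 to 1.31), and H2-Ab1 was 892 and 1508 CPM, a ratio of 1.69 (1.15 to 2.52). H2-Eb1 lay the other way, at 1033 and 710 CPM (0.687, 0.447 to 1.06). Class I genes had 0 of 4 past 2-fold.

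Of the 18 higher genes 4 were chemokine genes (Cxcl2, Cxcl10, Ccl3 and Ccl4), each with most of its UMIs in 1 barcode. Only 5 of 24 cytokine and chemokine genes met the minimum. Cxcl2, Cxcl10 and Ccl3 met it mainly through the L-fuc library, so nothing is read from this count. Cxcl2, a neutrophil attractant, had 13 UMIs in 5 of 11 leukocyte-led members of control and 192 in 4 of 13 of L-fuc, a 9.30-fold ratio of CPM (5.31 to 17.8), with 94.8% of the latter in 1 barcode. Cxcl10 had 3 and 57 UMIs, with 93.0% of the latter in 1 barcode, and Ifitm1 had 9 and 111 UMIs, with 97.3% in 1. Ccl3 (8 and 96 UMIs) and Ccl4 (51 and 315 UMIs) had 70.8% and 71.7% of their L-fuc UMIs in the barcode that also held 23 UMIs of Irf8 and most of the Ifitm1. Irf8 had 6 UMIs in 2 of 11 members of control and 45 in 7 of 13 of L-fuc, a ratio of 4.72 (2.01 to 13.5). Cd83, a surface marker of activated dendritic cells, had 11 UMIs in 9 of 11 and 49 in 8 of 13, a ratio of 2.80 (1.44 to 5.98). Plac8 was spread over members in both, with 35 UMIs in 10 of 11 and 116 in 12 of 13, a ratio of 2.09 (1.42 to 3.14). Lyz2 rested on 1 barcode in control, which held 100 of its 128 UMIs. In L-fuc it had 408 UMIs in 11 of 13 members, but 3 of these held 124, 111 and 91, most of the total. The red cell genes Hbb-bs (33 and 351 UMIs) and Hba-a1 and the gene AY036118 were also among the 10 highest.

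Lower in leukocyte-led members of L-fuc day 7 were the immunoglobulin genes Ighv6-6, Igkv13-84 and Ighg2c, whose control UMIs came from the 1 barcode with Jchain, and chaperone genes. Hsp90b1 had 83 UMIs in control, of which 64 were in that same barcode, and 30 in L-fuc. Dnajb1, a partner of Hsp70, had 46 UMIs in 6 of 11 members and 7 in 4 of 13, with 26 of the 46 in 1 barcode. Hsp90ab1 was present in every member of both, with 93 and 72 UMIs, 2184 and 1065 CPM (ratio 0.487, 0.353 to 0.670). Btg2 had 47 and 35 UMIs (ratio 0.469, 0.294 to 0.742). Of the stress list, 1 of 9 genes was past 2-fold, lower.

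**Figure D5:**
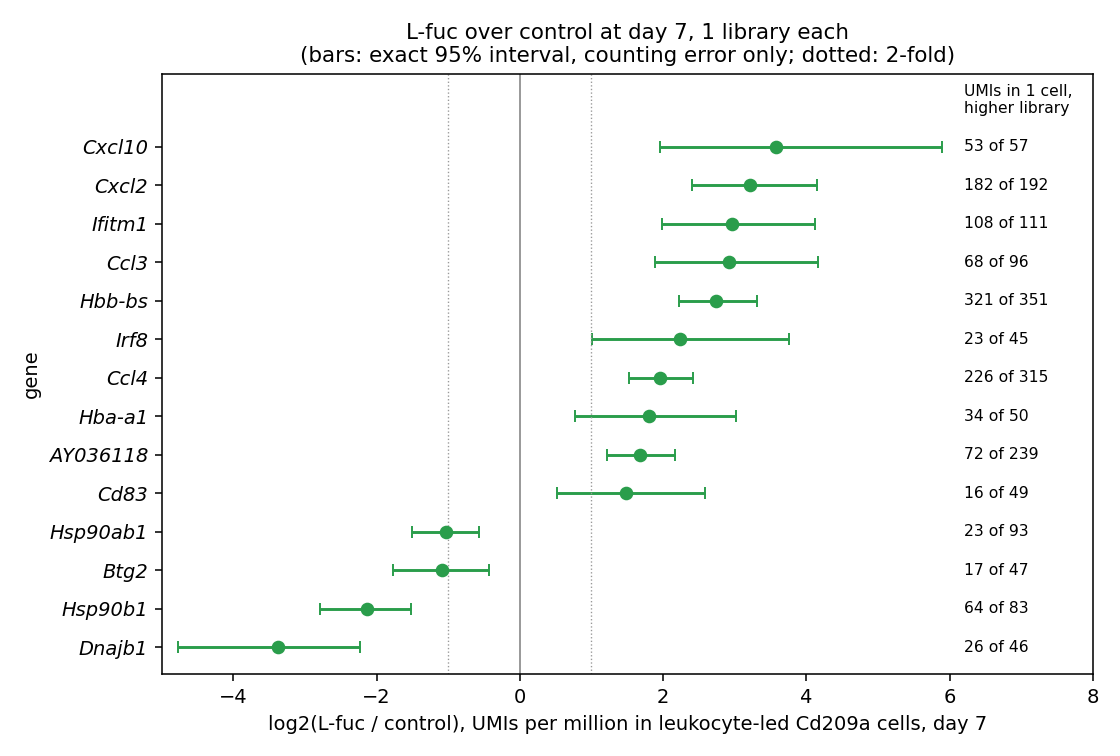
The plot gives log2 ratios of CPM without a pseudocount, L-fuc over control at day 7, for the genes with most change in leukocyte-led Cd209a cells that had UMIs in both libraries, with exact 95% intervals for counting error. The column at the right gives how many of the gene's UMIs in the higher library were in 1 cell, 182 of 192 for Cxcl2 and 108 of 111 for Ifitm1.

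At day 21 the comparison rested on 2 control members with 7489 UMIs and 4 L-fuc members with 56341 UMIs, of which 1 Sparc-led barcode held 51.6%. Of 160 genes, 84 were past 2-fold (52.5%), with 74 higher (46.2%) and 10 lower (6.25%), and the median log2 ratio over all genes was 0.95. With that median set to 0 the balance turned, with 24 higher and 39 lower, and it was 14 and 22 without members that held C1q. In leukocyte-led members 41 of 90 were past 2-fold (45.6%), with 33 higher (36.7%) and 8 lower (8.89%). Sparc had 0 UMIs in control and 85 in L-fuc, all in the Sparc-led barcode. Plac8 had 0 and 77 UMIs, all 77 in the barcode with 511 UMIs of Lyz2. It met the minimum through that 1 barcode only, so no fold is read from it. Of the 12 stress genes 6 met the minimum of 50 UMIs and all 6 were higher, but with 7489 UMIs in control a gene met it mainly through the L-fuc library, so nothing is read from this count. Hspa1a had 0 and 68 UMIs, Junb 1 and 114, and Fos 1 and 97, and no fold is read from these either. Ubb, Ifi27l2a, Atf3, Hspa1b and Tpt1 were the other highest genes. Malat1, a nuclear transcript, was 25504 CPM in control and 10135 CPM in L-fuc, and Neat1, Xist and S100a6 were lower too. Class II genes had 0 of 5 past 2-fold.

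The genes that the study followed in dendritic cells were at low counts. Vcp, a segregase of antigen processing, was 265, 282, 88.7, 401 and 257 CPM in leukocyte-led members in the order of libraries, from 16, 12, 6, 3 and 7 UMIs, and the day 7 UMIs were under the minimum for a ratio. Over all members it had 59 UMIs at control day 7 and 9 at L-fuc day 7, past 2-fold lower (ratio without a pseudocount 0.412, 0.180 to 0.837). H2-Q4, a class I gene, was 679, 446, 399, 401 and 623 CPM in leukocyte-led members. Over all members it had 107 UMIs at control day 7 (403 CPM) and 67 at L-fuc day 7 (682 CPM), a ratio of 1.69 (1.23 to 2.32) that was not past 2-fold. Tap2, a subunit of the peptide transporter, had 15, 3, 3, 2 and 6 UMIs, and Erap1, which trims peptides for class I, had 6, 0, 3, 1 and 3. Ccl22, Il12b and Il23a had no UMI in any of the 69 members, and Il12a had 1. Ccl17 had 40 UMIs in 1 member of control day 0, and Il6 had 32 UMIs in 1 member there. Genes that make, transfer and remove fucose summed to 348, 446, 237, 134 and 476 CPM in leukocyte-led members, led by the fucosidase gene Fuca1 in the first 3 libraries, with Gmds, Fut1, Fut2, Fut7 and Fut10 at 0. These sums came from 21, 19, 16, 1 and 13 UMIs, at which a difference between libraries was not detectable. Interferon-stimulated genes summed to 2698, 610, 1863, 134 and 1979 CPM, led by Isg15 at control day 0 and L-fuc day 7, and genes of Toll-like receptors and their adaptors to 1192, 610, 370, 801 and 879 CPM, mostly Cd14 in the first 3 libraries.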

How the data were processed

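The authors deposited raw UMI counts per gene and barcode for each library, aligned to mm10 with Cell Ranger (3.0 in the submitters' processing notes, 7.1.0 in the matrix headers), with Seurat 4.0 also named. The receptor contigs carry counts of UMIs per barcode as the authors deposited them. No doublet caller was run here. UMIs were summed over the barcodes of a group and library and scaled to 1000000 (CPM). Shares have exact Clopper-Pearson, sums exact Poisson and ratios exact conditional 95% intervals. Conditions were compared only by size, past 2-fold with at least 50 UMIs and a pseudocount of 1 UMI, since each has 1 library. Where 1 group held 0, a floor of 3 UMIs over the group gave a bound. Gates were compared with edgeR 4.0.16 (quasi-likelihood, library as a block, Benjamini-Hochberg threshold 0.05) in R 4.3.3, with DESeq2 1.42.0 as an alternative, and the scripts were tested on simulated data. The pairing comes from the library that the gates share. Python 3.11.15, numpy 2.4.6, scipy 1.17.1 and pandas 2.3.3 did the rest. Gene positions are from GENCODE for GRCm38.

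Named genes are list members, the genes the study followed, the 10 highest and 10 lowest past 2-fold per day, and the 10 largest changes each way per gate comparison that went the same way in each library. Genes that gates read, mitochondrial, ribosomal protein, Gm and Rik genes were left out of the last 2 sets. Some genes that these rules name are not reported here. Single barcodes were described after their values were seen. The members and lists were chosen with earlier results of these data known. Alternatives were lower limits on genes, a mitochondrial maximum of 20%, at least 2 UMIs of Cd209a, other C1q limits, thinning to 1000 UMIs, other pseudocounts and minimums, DESeq2 and its size factors, no filter, no block and left-out libraries. The division by Sparc, the fits over all 5 libraries and their left-out libraries were added after seeing the data. Individual mice and the other tumor model were not analysed here.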

Additional observations from a re-analysis of the deposited data

Results flagged for a closer look

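The ratio of the share of Cd209a cells, L-fuc over control, was 0.725 at day 7 and 2.66 at day 21, in opposite directions, and the difference between the days was not tested, since each rests on 1 library per condition. Sparc in Cd209a cells was lower with L-fuc at day 7 (log2 ratio -1.48) and higher at day 21 (3.51, against a control level of 0 UMIs), and this difference was not tested either. The Sparc UMIs of L-fuc day 21 were in 1 barcode.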

How the results depend on the processing

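The share ratio of day 7 moved to 1.56 with at least 2 UMIs of Cd209a, 1.99 after thinning to 1000 UMIs and 2.34 with leukocyte-led members, and the other settings gave 0.650 to 1.19. Those of day 21 ranged from 1.02 to 4.88, and the last, without a C1q limit, had an interval that excludes 1 (1.92 to 14.7, from 22 and 6 barcodes). Only 4 and 2 of these barcodes were members, and the others held more than 5 C1q UMIs. Genes past 2-fold at day 7 (243) became 758 with at least 20 UMIs, 3885 with no minimum, 19 after thinning, 53 with at least 2 UMIs of Cd209a, 43 without C1q and 25 in leukocyte-led members. At day 21 (84) they became 36, 191, 6100, 47, 0, 41, 36 and 41 with a pseudocount of 5, at least 20 UMIs, no minimum, means over cells, thinning, at least 2 Cd209a UMIs, no C1q and leukocyte-led members.

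No paired analysis was possible between conditions because each library was taken to pool mice, which are not identified. The pairing of gates by library was dropped in 1 setting. With no replicate block the counts of 427, 14 and 83 genes (macrophages, monocytes, cDC1) fell to 111, 0 and 0, with 168 and 71 genes at an unadjusted p under 0.05 for the last 2. DESeq2 gave 121, 23 and 12. For monocytes no filter gave 257, at least 2 UMIs of Cd209a 35, no C1q 173, all 5 libraries 5 with edgeR and 94 with DESeq2, and leukocyte-led members 0 with edgeR (133 at an unadjusted p under 0.05, DESeq2 not run). For cDC1, DESeq2 size factors gave 23, no C1q 7, and all 5 libraries 4 with edgeR and 22 with DESeq2, against 110 with leukocyte-led members. There the other gates were not divided by Sparc, which is no finding. Leaving out each library from the fits over all 5 gave 312 to 637 genes for macrophages, 0 to 7 for monocytes and 0 to 16 for cDC1 with all members, and 262 to 577, 0 to 15 and 38 to 141 with leukocyte-led members. Each of the 5 libraries moved at least 1 of these counts by over 1.5 times. The test on 2 libraries could not be repeated in this way, since no residual degree of freedom would be left. H2-Ab1 against cDC1 turned from -1.01 to 0.082 on the log2 scale with leukocyte-led members over all 5 libraries. Of the named gate genes that entered the fits over all 5 libraries, 18 kept their call and 14 lost it in the same direction, and with leukocyte-led members 17 kept it and 11 lost it besides H2-Ab1. Cd209d, Cd209e and Flt3 were among those that did not enter. The causes were not tested. With 2 to 41 members per library, depth limits every comparison between conditions.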
